A study of Mus musculus with 2 samples.

Results

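The enzymes that write, copy and remove DNA methylation were followed across single induced macrophages. The set was chosen by gene symbol and holds 9 genes, *Uhrf1*, *Dnmt1*, *Dnmt3a*, *Dnmt3b*, *Dnmt3l*, *Tet1*, *Tet2*, *Tet3* and *Tdg*, of the 20034 genes in the count table, and 9 of 9 had a row. The cells are wild type mouse iMac, macrophages reprogrammed from fibroblasts by c-Myc alone, per the title of the series. A cDNA library and an oligo one, of the same cell type and genotype, are listed, both made on the DNBelab C4 droplet system. Barcodes carry no library name, so the 1 matrix was treated as 1 sample with no replicate, and no test was possible. Starting fibroblasts and natural macrophages were not analysed here.

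Methylation of cytosine in CpG dinucleotides is copied after DNA replication by DNMT1, which UHRF1 recruits to the newly replicated, half-methylated strand. DNMT3A and DNMT3B place methyl groups on sites that had none, and DNMT3L is a partner of both that has no catalytic activity. TET1, TET2 and TET3 oxidise 5-methylcytosine, and the glycosylase TDG cuts out the oxidised bases so that base excision repair can restore cytosine. TET2 and DNMT3A are well known in blood and macrophage biology because both are often mutated in clonal blood disorders in people.

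Of 6837 barcodes, 6751 passed the limits of 500 genes or more and 15% mitochondrial counts or less and were kept, with a median of 17178 counts and a range of 1001 to 192369. All 20 macrophage markers were at 10 CPM (counts per 1000000 summed counts) or more, among them *Tyrobp* at 5700 CPM and *Lyz2* at 3580 CPM. None of the 5 fibroblast markers with a row reached that level, and together they summed to 2.54 CPM. *Myc* was detected in 40.9% of cells and its level was 40.2 CPM, and endogenous and introduced *Myc* cannot be told apart in this table. Levels are given with exact Poisson intervals and shares of cells with Clopper-Pearson ones, all at the 95% level and all covering counting error only.

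Promoter windows from RefSeq (GRCm38.p6), 250 bases before to 50 after a start site, were searched on both strands for the E2F words TTTCCCGC, TTTCGCGC, TTTGCCGC and TTTGGCGC, since E2F factors control many genes of S phase. The 9 genes had 16 windows. An E2F word occurred in 1 of the 3 *Dnmt1* windows and in 1 of the 2 *Uhrf1* windows, and in none of the windows of the other genes. These 2 windows are shown because their genes are the pair whose level followed the S phase genes, and capitals mark the words. The start site of the *Dnmt1* window lay 7265 bases downstream of the start of its gene in GENCODE M21, and that of the *Uhrf1* window 992 bases downstream.
Dnmt1, chr9:20952574-20952873, minus strand: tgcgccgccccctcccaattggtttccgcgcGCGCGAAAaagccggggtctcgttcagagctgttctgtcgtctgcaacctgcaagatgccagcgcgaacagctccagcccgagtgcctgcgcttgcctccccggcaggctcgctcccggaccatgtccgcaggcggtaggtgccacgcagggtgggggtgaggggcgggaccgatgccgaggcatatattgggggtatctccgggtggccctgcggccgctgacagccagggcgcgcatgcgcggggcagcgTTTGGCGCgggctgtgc
Uhrf1, chr17:56304063-56304362, plus strand: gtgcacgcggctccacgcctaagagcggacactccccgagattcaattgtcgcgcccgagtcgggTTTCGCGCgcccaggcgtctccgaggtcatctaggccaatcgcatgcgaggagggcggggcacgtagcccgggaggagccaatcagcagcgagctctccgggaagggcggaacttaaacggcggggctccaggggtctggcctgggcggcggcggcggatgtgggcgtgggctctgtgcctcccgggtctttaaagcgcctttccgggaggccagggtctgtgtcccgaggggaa
In the *Dnmt1* window TTTCGCGC lay on the other strand, read as GCGCGAAA, with its first base at -219 from the start site, and TTTGGCGC began at 34 downstream of it. In the *Uhrf1* window TTTCGCGC began at -185. Both windows held 33 CpG dinucleotides, against a median of 7 over all windows. This was not particular to the pair, as windows of the other members held from 3 (*Dnmt3l*) to 57 (*Tet2*). The remaining windows of *Dnmt1* held 12 and 2, and that of *Uhrf1* held 12. Each E2F word contains a CG, so choosing windows by these words favoured a higher count. An E2F word occurred in 744 of 32851 promoter windows, or 2.26%.

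The E-box CACGTG, a sequence that Myc family factors bind, occurred in 1 window each of *Dnmt3a*, *Dnmt3l* and *Tdg*, at -80, -44 and -28 from the start site, and in 7.15% of all windows. The *Tdg* window is shown with the E-box in capitals, as its start site is, of these 3, the nearest to the start of its gene in GENCODE M21, at 10 bases.
Tdg, chr10:82629588-82629887, plus strand: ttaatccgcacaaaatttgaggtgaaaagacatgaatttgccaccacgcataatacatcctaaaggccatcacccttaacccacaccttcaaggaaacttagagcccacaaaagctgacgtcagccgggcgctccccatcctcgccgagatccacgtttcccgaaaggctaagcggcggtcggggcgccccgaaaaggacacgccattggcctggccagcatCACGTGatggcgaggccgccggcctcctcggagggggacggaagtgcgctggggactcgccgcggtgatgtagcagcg
A word match is a description of these letters, and the start sites used by the cells were not measured.

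The maintenance pair stood above the other members in level. *Dnmt1*, on chromosome 9 from 20907209 to 20959888 in GENCODE M21 (GRCm38), had 11307 counts and a level of 70.5 CPM (69.2 to 71.8). *Uhrf1*, on chromosome 17 from 56303321 to 56323486, had 9308 counts and 58.0 CPM (56.9 to 59.2). Among all genes of the table they ranked 1643 and 1971 by CPM. Single cells held up to 29 counts of *Dnmt1* and up to 23 of *Uhrf1*.

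The enzymes that act on unmethylated DNA were lower. In M21, *Dnmt3a* lies on chromosome 12 from 3806007 to 3914443, *Dnmt3b* on chromosome 2 from 153649450 to 153687730 and *Dnmt3l* on chromosome 10 from 78041947 to 78063622. *Dnmt3a* was at 18.96 CPM (18.3 to 19.6), *Dnmt3b* at 5.92 CPM (5.55 to 6.31) and *Dnmt3l* at 0.923 CPM (0.780 to 1.08), the last from 148 counts in 6751 cells. *Dnmt1* gave 73.9% of the counts of the 3 catalytic methyltransferases, *Dnmt3a* 19.9% and *Dnmt3b* 6.21%.

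Of the oxidase genes, *Tet1* lies on chromosome 10 from 62804570 to 62908996, *Tet2* on chromosome 3 from 133463679 to 133545139 and *Tet3* on chromosome 6 from 83362373 to 83459084. *Tet3* led with 19.8 CPM (19.1 to 20.5), followed by *Tet2* with 8.23 CPM (7.79 to 8.69). *Tet1* had 16 counts in 15 cells, a level of 0.0998 CPM (0.0570 to 0.162), and 2 of the 16 counts came from a cluster of 24 cells. *Tet3* thus held 70.4% of *Tet* counts, *Tet2* 29.3% and *Tet1* 0.355%. *Tdg*, on chromosome 10 from 82629828 to 82650799, was at 13.7 CPM (13.1 to 14.3).

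By CPM the order was *Dnmt1*, *Uhrf1*, *Tet3*, *Dnmt3a*, *Tdg*, *Tet2*, *Dnmt3b*, *Dnmt3l* and *Tet1*, and *Tet3* and *Dnmt3a* were the neighbours whose intervals overlapped. Divided by the length of the longest annotated transcript, *Uhrf1* came first at 16.2 CPM per kilobase and *Dnmt1* next at 12.01. *Tdg* followed at 3.91 CPM per kilobase, above *Dnmt3a* at 1.96, *Tet3* at 1.82, *Dnmt3b* at 1.37 and *Tet2* at 0.897. *Dnmt3l* was at 0.507 and *Tet1* at 0.00694 CPM per kilobase. Whether the counted reads cover whole transcripts or one end is not stated in the sources used here. The division by length applies only to whole transcripts, so the order per kilobase is not read as an order of level. Of the 9 members, 5 were at 10 CPM or more, against 33.2% of all genes.

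Some of these genes share exon bases with a neighbour on the other strand in M21, and whether counting used strand is not stated. *Dnmt3a* shares 133 exon bases with *Dnmt3aos*, *Tdg* 367 with *Glt8d2*, *Tet2* 43 with *Gm42567* and *Dnmt3l* 67 with *Aire*. *Dnmt3a*, *Dnmt3l* and *Tdg* also have an annotated pseudogene. Their counts are uncertain to that extent, most of all for *Dnmt3l*, which had few.

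**Figure D1:**
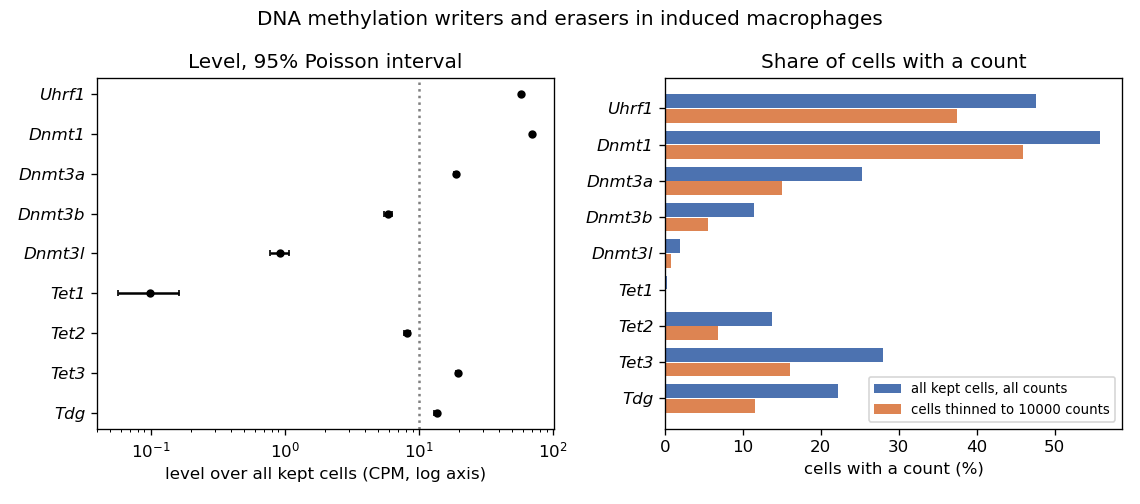
Level of each of the 9 genes over 6751 cells (left, CPM on a log axis, 95% Poisson interval, dotted line at 10 CPM) and share of cells with a count (right, in percent, for all cells with all counts and for the 4312 cells thinned to 10000 counts). *Dnmt1* and *Uhrf1* stood highest in both panels, and *Tet1* lowest.

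Detection followed depth. In 10 equal groups of cells by total counts, with median counts of 1362 in the shallowest and 67623 in the deepest group, the share of cells with a *Dnmt1* count went up from 11.98% to 95.3%. *Uhrf1* went up from 8.58% to 89.2%, *Dnmt3a* from 4.29% to 66.2% and *Tet3* from 3.25% to 75.3%. *Tdg* went up from 2.07% to 62.2%, *Tet2* from 1.33% to 45.3% and *Dnmt3b* from 1.33% to 33.8%. *Dnmt3l* reached 5.93% in the deepest group. *Tet1* was found in 0 of 676 cells of the shallowest group, which allows a share of up to 0.444% when 3 counts are taken as the limit of a count of 0, and in 0.889% of the deepest.

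At equal depth the order was kept, with lower shares. In the 4312 cells with at least 10000 counts, each thinned to 10000 counts, *Dnmt1* was found in 45.9% of cells (44.4 to 47.4), against 55.9% of all kept cells unthinned. *Uhrf1* was found in 37.5% (36.1 to 39.0), against 47.6% unthinned. The thinned share was 16.0% for *Tet3*, 15.1% for *Dnmt3a*, 11.5% for *Tdg*, 6.86% for *Tet2*, 5.54% for *Dnmt3b* and 0.812% for *Dnmt3l*. At this depth 5 of the 9 members were found in at least 10% of cells. The share of all genes found that often was not computed, so this count is not read as high or low. Of the thinned cells, 21.1% had no count of any member and 14.3% had counts of at least 3 members. No cell type known to lack these genes was set apart, so the share that free RNA gives was not measured.

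*Uhrf1* was spread less evenly over cells than its level and depth alone would give. If its thinned counts were spread in proportion to depth, 43.4% of cells would have had a count, against the 37.5% observed, and its variance over its mean was 1.42. For *Dnmt1* the even share was 49.6%, against 45.9% observed, with a variance over mean of 1.25. *Dnmt3a* had a variance over mean of 1.15, and the other members were at or below 1.09. The level in CPM was less tied to depth than detection was, except in the shallowest and the deepest cells. *Tet3* was at 25.3 CPM (24.0 to 26.8) in the deepest group, against 15.5 CPM (13.8 to 17.4) in group 7 of 10 from the shallowest. *Tet2* was at 11.0 CPM in the deepest group against 6.18 CPM in group 7, and *Tdg* at 16.9 CPM against 12.5 CPM. *Uhrf1* went the other way, at 54.8 CPM in the deepest group against 59.3 CPM in group 7. *Dnmt1* was at 99.8 CPM (80.6 to 122) in the shallowest group and 75.9 CPM in the deepest, against 64.3 CPM in group 7. *Dnmt3a* was at 44.6 CPM (32.1 to 60.3) in the shallowest group, from 42 counts, and between 12.7 and 24.2 CPM in the other groups. *Malat1*, a noncoding RNA kept in the nucleus, moved with depth too, at 618 CPM in the shallowest group and 318 CPM in the deepest. It was lowest between these, at 119 CPM in group 7. Cells rich in it formed clusters of their own, and leaving these out was chosen after the data were seen. Without the clusters led by it, *Dnmt3a* was at 39.9 CPM in the shallowest group and 19.2 CPM in the deepest. *Tet3* in the deepest group was then at 18.6 CPM, against 25.3 CPM with them, and *Tet2* in the shallowest at 3.42 CPM from 3 counts, against 12.7 CPM from 12 counts with them.

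**Figure D2:**
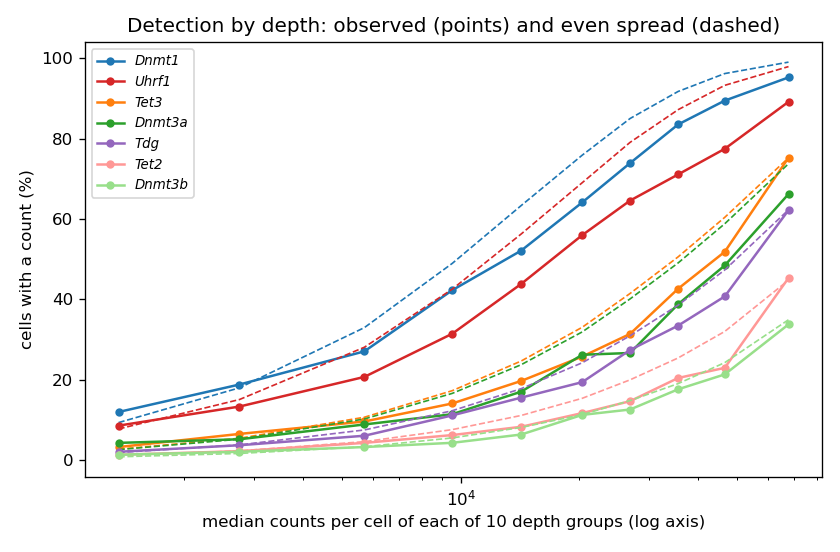
Share of cells with a count (percent, points) in 10 groups of the 6751 cells by depth, at the median counts per cell of each group (log axis), for 7 genes. Dashed lines give the share expected if each gene's counts were spread over cells in proportion to depth, and the points of *Dnmt1* and *Uhrf1* lay below their lines in the deeper groups, at 95.3% and 89.2% in the deepest. The other genes lay below theirs in group 7 from the shallowest, such as *Dnmt3a* at 26.7% against 40.1% and *Tet3* at 31.4% against 41.5%. In the deepest group *Dnmt3a* was at 66.2% against 73.8%, while *Tet3*, *Tet2* and *Tdg* lay close to their lines.

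The relation to S phase was examined in the 4312 deeper cells, ordered by their summed thinned count of 30 S phase genes that include no member and cut at quantiles into 5 groups with ties kept together, called S-low for the lowest and S-high for the highest. *Uhrf1* was at 16.6, 33.7, 49.9, 77.9 and 114 CPM from the lowest to the highest group, so each step was upward. *Dnmt1* was at 32.5, 56.6, 71.2, 85.8 and 106 CPM over the same groups. The share of thinned cells with a *Uhrf1* count was 14.0, 27.4, 39.4, 49.1 and 63.3%, and the share with a *Dnmt1* count went up from 24.4% in the lowest group to 63.7% in the highest. For both genes no CPM interval of a group overlapped that of the next, while the share of cells with a *Dnmt1* count had overlapping intervals in the middle group and the one above it.

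*Uhrf1* was at 114 CPM (110 to 119) in the S-high group of 755 cells, against 16.6 CPM (15.1 to 18.2) in the S-low group of 926 cells. With 1 CPM added to both, the difference was 6.55-fold. Its log2 ratio with a pseudocount of 1 CPM was 2.71, where the ratio itself without the pseudocount had an interval of 2.64 to 2.93. *Dnmt1* was at 106 CPM (102 to 110) in the S-high group, against 32.5 CPM (30.4 to 34.7) in the S-low group. With the same pseudocount the difference was 3.19-fold, a log2 ratio of 1.67. A gene at 10 CPM or more over all kept cells was called at a fold of 1.5. By this rule 2 of the 5 members at that level were called higher and 0 lower, where 9.80% of all genes at that level were called higher and 2.66% lower. The median log2 ratio of those genes was 0.11, and 99.8% of them lay below *Uhrf1*.

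Over the same groups the other members had no such gradient, and their ratios by depth are given below. *Dnmt3a* was at 19.6, 18.7, 18.3, 19.1 and 19.3 CPM over the groups, with a log2 ratio of -0.02, and its 5 intervals overlapped. *Tet3* was at 17.8, 21.9, 21.3, 18.9 and 18.5 CPM, with its high values in the second and the middle group. *Tdg* was at 14.5 CPM (13.1 to 16.0) in the S-high group, against 11.3 CPM (10.1 to 12.6) in the S-low group, a log2 ratio of 0.34 that was under the fold used for calls. *Dnmt3b* was at 5.58 CPM in the S-high group against 4.28 CPM in the S-low group, and *Tet2* at 7.55 CPM in the S-high group against 7.48 CPM in the S-low group. *Dnmt3l* had 23 counts in the S-high group and 24 in the S-low group, and *Tet1* had 3 and 2, which is too few to compare.

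The make-up of methyltransferase counts differed as well. *Dnmt1* held 80.9% of the counts of *Dnmt1*, *Dnmt3a* and *Dnmt3b* in the S-high group (79.6 to 82.2), against 57.7% in the S-low group (55.2 to 60.1). *Tet3* held 70.8% of *Tet* counts in the S-high group, against 70.3% in the S-low group. Cells with no count of any member made up 7.55% of the S-high group, against 39.7% of the S-low group, after thinning.

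S-high cells were deeper, with a median of 33990 counts against 24977 in S-low cells. Within 3 groups by depth, from shallow to deep, the log2 ratio of *Uhrf1* was 2.90, 2.70 and 2.38, and that of *Dnmt1* was 1.80, 1.89 and 1.31. That of *Tet3* was 0.74 (0.31 to 1.27), 0.10 and -0.31 (-0.55 to -0.10), past the fold used for calls in the shallow group and of opposite sign in the deep one. *Tdg* had 0.52, 0.53 and 0.06, and *Dnmt3a* 0.28, 0.07 and -0.18. The macrophage list summed to 14313 CPM in the S-high group, against 18187 CPM in the S-low group, and the mature macrophage list to 89.2 CPM in the S-high group against 283 CPM in the S-low group. *Malat1* was at 18.6 CPM in the S-high group, against 158 CPM in the S-low group. Without the clusters led by it the log2 ratio was 2.84 for *Uhrf1*, 1.79 for *Dnmt1*, 0.29 for *Tet3* and 0.50 for *Dnmt3b*, where it was 0.05 for *Tet3* and 0.32 for *Dnmt3b* with them. The part of the macrophage markers in the difference was not tested.

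**Figure D3:**
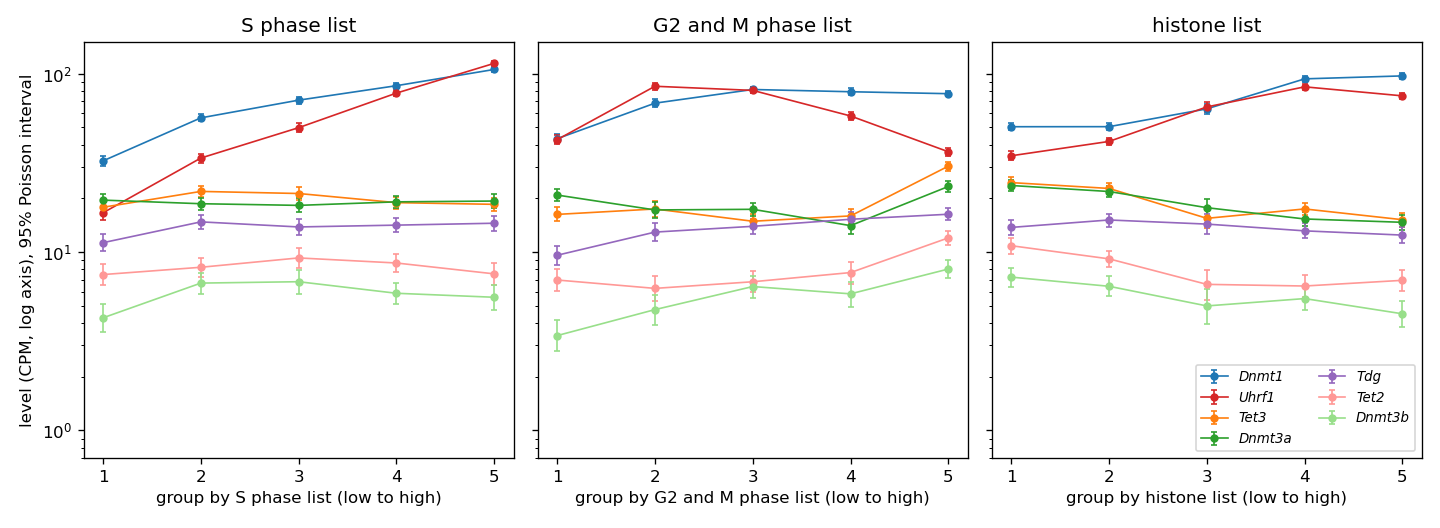
Level (CPM on a log axis, 95% Poisson interval) of 7 genes in groups of the 4312 deeper cells ordered by S phase genes (left), G2 and M phase genes (middle) and replication-dependent histone genes (right), from low to high. *Uhrf1* climbed through the S phase groups to 114 CPM, whereas over the G2 and M phase groups it was highest in the second group at 85.1 CPM and lowest in the last at 36.5 CPM.

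Ordered by 30 genes of G2 and M phase instead, the pair parted. *Uhrf1* was at 42.7, 85.1, 80.7, 58.0 and 36.5 CPM from the lowest to the highest group, with the second and the middle group highest. *Dnmt1* was at 43.3, 68.4, 81.7, 79.3 and 77.4 CPM, and stayed near its highest level in the upper 3 groups. *Dnmt1* was called higher in the G2M-high group, with 77.4 CPM (74.6 to 80.2) against 43.3 CPM (40.9 to 45.7) in the G2M-low group and a log2 ratio of 0.82. *Uhrf1* had 36.5 CPM (34.7 to 38.5) in the G2M-high group against 42.7 CPM (40.4 to 45.2) in the G2M-low group, a log2 ratio of -0.22 that was not called.

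*Tet3* and *Tdg* were called higher in the G2M-high group too. *Tet3* had 30.3 CPM (28.6 to 32.1) there, against 16.3 CPM (14.9 to 17.8) in the G2M-low group, and its level was between 14.9 and 17.5 CPM in the lower 4 groups. *Tdg* had 16.3 CPM (15.1 to 17.6) in the G2M-high group, against 9.60 CPM (8.52 to 10.8) in the G2M-low group, with an upward step at each group. In all, 3 of the 5 members at 10 CPM or more were called higher and 0 lower, where 27.4% of all genes at that level were called higher, 2.42% were called lower and the median log2 ratio was 0.29. Below that level, *Dnmt3b* had 8.04 CPM in the G2M-high group against 3.40 CPM in the G2M-low group, and *Tet2* had 12.02 CPM in the G2M-high group against 6.98 CPM in the G2M-low group.

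*Malat1* moved with this comparison, at 630 CPM in the G2M-high group against 16.3 CPM in the G2M-low group. Without its clusters, and with the groups cut again, *Tet3* was at 17.5 CPM in the G2M-high group against 16.1 CPM in the G2M-low group, a log2 ratio of 0.11, and *Tet2* was at 7.24 CPM in the G2M-high group against 7.15 CPM in the G2M-low group. *Dnmt3a* was then called lower, with 12.5 CPM in the G2M-high group against 21.9 CPM in the G2M-low group. *Dnmt1* kept its call, with 88.8 CPM in the G2M-high group against 40.4 CPM in the G2M-low group. *Tdg* was at 14.7 CPM in the G2M-high group against 9.65 CPM in the G2M-low group, a log2 ratio of 0.56 just under the fold used, and *Dnmt3b* was at 5.88 CPM in the G2M-high group against 3.34 CPM in the G2M-low group. The log2 ratio of *Uhrf1* was then 0.13, also not called.

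Cells were also sorted into 4 classes by whether their thinned S phase count was in the top 1 of 3 quantile groups (above 19) and likewise their G2 and M phase count (above 20). There were 1027 S-only cells, 330 in both, 1077 G2M-only cells and 1878 in neither, and 470 and 298 cells lay within 1 count of the cuts. *Uhrf1* was at 115 CPM in S-only cells, 70.4 in both, 33.2 in G2M-only cells and 39.4 in neither. *Dnmt1* was at 96.6 CPM in S-only cells, 104 in both, 68.9 in G2M-only cells and 46.5 in neither. G2M-only cells and those in neither class thus differed for *Dnmt1* by more than counting error, in the opposite direction to *Uhrf1*.

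S-only over G2M-only, *Uhrf1* was called higher with a log2 ratio of 1.76 and a fold of 3.39, both with the pseudocount, and *Dnmt1* had a log2 ratio of 0.48 that was not called. *Tet3* was called lower, with 17.4 CPM in S-only cells against 27.1 CPM in G2M-only cells. Of all genes at 10 CPM or more, 1.67% were called higher and 7.27% lower, with a median log2 ratio of -0.09. *Malat1* was at 16.0 CPM in S-only cells against 561 CPM in G2M-only cells. Without the clusters rich in it, *Uhrf1* had a log2 ratio of 1.73, *Tet3* one of 0.17, and *Dnmt3a* was called higher with 21.8 CPM in S-only cells against 12.4 CPM in G2M-only cells.

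The 37 replication-dependent histone genes, whose transcripts are made during DNA synthesis, gave a further ordering. *Dnmt1* was at 50.5, 50.5, 63.6, 93.7 and 97.3 CPM over its groups, and *Uhrf1* at 34.7, 41.8, 65.2, 84.5 and 75.2 CPM. In the histone-high over the histone-low group the log2 ratio was 1.09 for *Uhrf1* and 0.93 for *Dnmt1*, both called higher. *Dnmt3a* was called lower, with 14.7 CPM in the histone-high group against 23.6 CPM in the histone-low group. So was *Tet3*, with 15.2 CPM in the histone-high group against 24.5 CPM in the histone-low group. Among all genes at 10 CPM or more 1.94% were called higher and 8.07% lower, with a median log2 ratio of -0.18. *Malat1* was at 16.1 CPM in the histone-high group against 472 CPM in the histone-low group. Without its clusters the log2 ratio was -0.36 for *Dnmt3a* and -0.18 for *Tet3*, neither called, and 0.97 for *Uhrf1* and 1.07 for *Dnmt1*. The groups were cut again for this, and the histone-low group then held 1358 cells in place of 946. The part of this wider group in the lost calls was not tested.

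*Dnmt3a* was the member that differed most with macrophage maturity markers outside the cell cycle classes. Among cells in neither class, 677 had a thinned count of a mature macrophage marker and none of an immature myeloid one, and 508 had the reverse. *Dnmt3a* was at 23.2 CPM (21.2 to 25.3) in mature-marker cells, against 11.9 CPM (10.1 to 13.8) in immature-marker cells. With the pseudocount the difference was 1.88-fold, a log2 ratio of 0.91. *Uhrf1* was called lower, with 31.1 CPM (28.8 to 33.5) in mature-marker cells against 47.6 CPM (44.0 to 51.4) in immature-marker cells. *Dnmt1* had 40.1 CPM in mature-marker cells against 54.4 CPM in immature-marker cells, a log2 ratio of -0.43 that was not called. Among the 5 members at 10 CPM or more, 1 was called higher and 1 lower, where 8.49% of all genes at that level were called higher and 3.22% lower.

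*Tet3* had 16.8 CPM in mature-marker cells against 14.7 CPM in immature-marker cells, and *Tdg* 12.3 CPM in mature-marker cells against 11.1 CPM in immature-marker cells. *Tet2* had 6.03 CPM in mature-marker cells against 5.93 CPM in immature-marker cells, and *Dnmt3b* 3.90 CPM in mature-marker cells against 5.42 CPM in immature-marker cells. Each of these 4 pairs was under the fold used, and the intervals of each pair overlapped. *Dnmt3a* held 34.6% of the counts of the 3 catalytic methyltransferases in mature-marker cells (32.1 to 37.1), against 16.5% in immature-marker cells (14.3 to 18.99). *Malat1* was close in the 2 groups, at 22.1 CPM in mature-marker cells and 23.9 CPM in immature-marker cells, and without its clusters the log2 ratio of *Dnmt3a* was 0.87. The S phase list still summed to 976 CPM in mature-marker cells against 1294 CPM in immature-marker cells, and the part of this in the values of *Uhrf1* and *Dnmt1* was not tested.

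**Figure D4:**
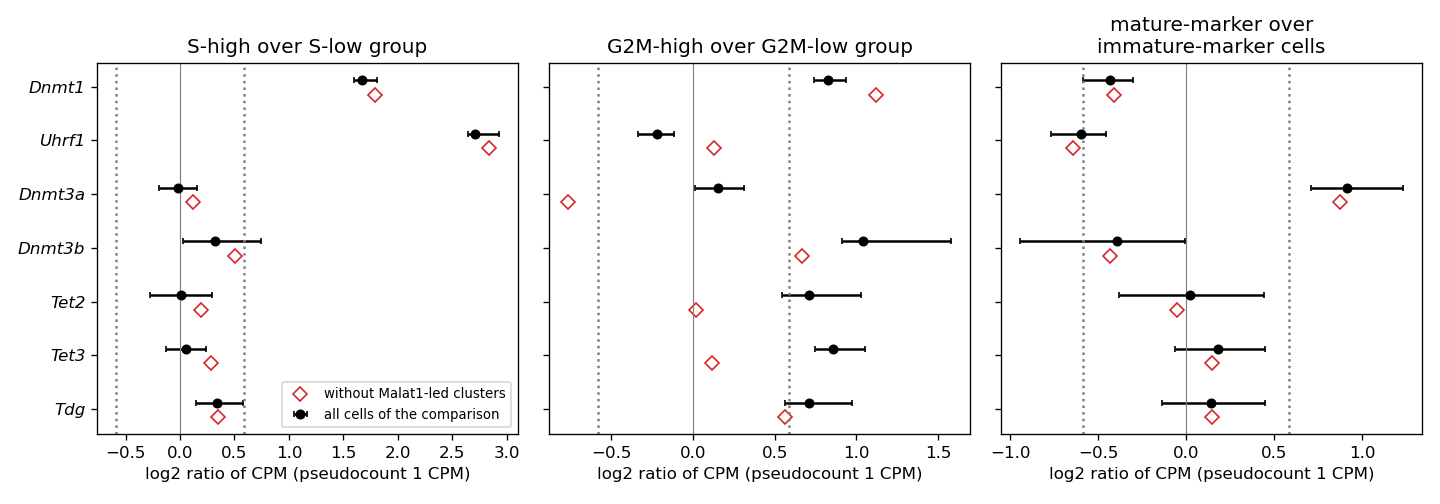
Log2 ratio of CPM (pseudocount 1 CPM) of 7 genes in 3 comparisons, for all cells of each comparison (black, with the 95% counting interval of the ratio without pseudocount) and without the clusters led by *Malat1* (red). Dotted lines mark a fold of 1.5 in either direction. Leaving out these clusters moved *Tet3* in the G2 and M phase comparison to 0.11 and left *Uhrf1* in the S phase comparison at 2.84.

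No member was called between cells with and without a *Myc* count. In 1240 thinned cells with a *Myc* count, *Dnmt1* was at 76.6 CPM (74.1 to 79.2), against 67.8 CPM (66.3 to 69.4) in 3072 cells without one. *Uhrf1* was at 62.2 CPM (59.9 to 64.5) in cells with a *Myc* count, against 56.9 CPM (55.4 to 58.3) in cells without. Of the members, 0 of 5 were called, where 0.0150% of all genes at 10 CPM or more were called higher and 0.0451% lower. Within 3 groups by S phase count, from low to high, the log2 ratio of *Uhrf1* was -0.04, -0.02 and 0.07 and that of *Dnmt1* 0.20, 0.05 and 0.12. That of *Tet3* was 0.30, 0.13 and 0.18, and that of *Dnmt3b*, which was below the level for calls, was 0.61, 0.22 and -0.01. In the low S phase group *Dnmt3b* was at 7.25 CPM in cells with a *Myc* count, against 4.41 CPM in cells without. The 1 gene called higher was *Myc* itself, by which the cells were sorted. Of the genes with an E-box in a window, *Dnmt3a* had a log2 ratio of 0.10 and *Tdg* one of 0.08. With almost no gene called, this comparison cannot show whether an E-box matters. A cell without a *Myc* count at this depth may still express it.

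Clusters made without any of the listed genes gave 7 groups, of which 5 hold at least 50 cells and the sample's usual depth, here called by number and leading genes. Cluster 2 (1522 cells), led by *Fbxo5* and *Hist1h1b*, had the highest *Dnmt1* at 87.9 CPM and *Uhrf1* at 73.8 CPM of clusters 1 to 6, and a high S phase sum of 2088 CPM. Cluster 1 (1533 cells), led by *Ly6c2* and *Prtn3*, had *Dnmt1* at 79.5 CPM and *Uhrf1* at 71.1 CPM but *Dnmt3a* at 12.1 CPM. In cluster 3 (1132 cells), led by *Ms4a7* and *Folr2*, the order was turned for *Dnmt3a*, at 26.1 CPM, with *Dnmt1* at 46.8 CPM and *Uhrf1* at 39.0 CPM. Cluster 4 (1062 cells), led by histone genes, was below the level in all kept cells for each of the 7 genes in the cluster plot, down to 6.66 CPM for *Tet3* and 7.43 CPM for *Dnmt3a*.

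Cluster 6 (535 cells) was led by *Malat1*, *Neat1* and *Pde4d*. It had *Tet3* at 43.0 CPM (40.2 to 45.8), *Dnmt3a* at 35.2 CPM (32.7 to 37.8), *Tet2* at 18.9 CPM (17.1 to 20.9), *Tdg* at 18.5 CPM and *Dnmt3b* at 10.6 CPM, each above its level in clusters 1 to 4. Its *Uhrf1* was at 36.1 CPM and its *Dnmt1* at 61.4 CPM. It had *Malat1* at 1337 CPM, against 23.6 to 30.6 CPM in clusters 1 to 4, a G2 and M phase sum of 3905 CPM and a histone sum of 112 CPM. Its median depth was 32863 counts, and the part of nuclear RNA in these levels was not tested. Cluster 5 (943 cells) was shallow, with a median of 1804 counts, and cluster 7 held 24 cells with a high mitochondrial share.

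**Figure D5:**
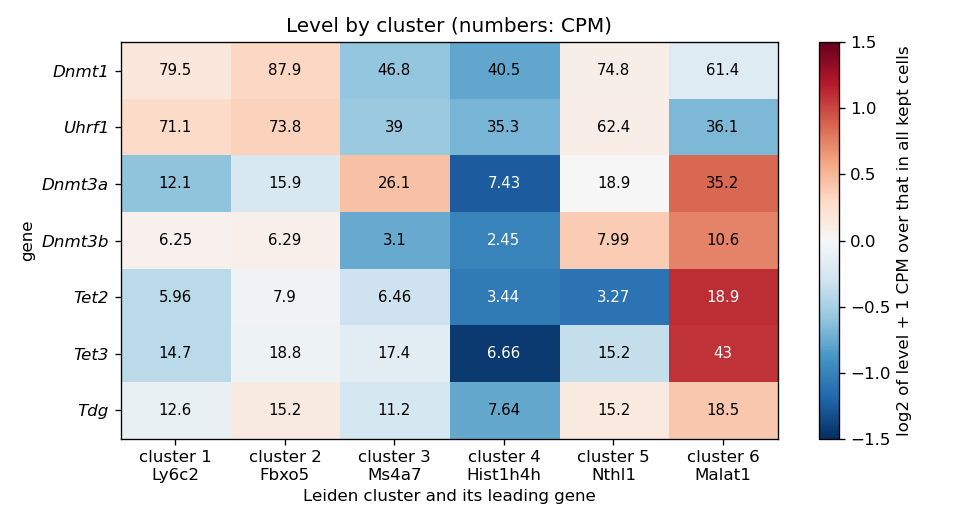
Level of 7 genes in clusters 1 to 6, named by their leading gene. Numbers are CPM, and colour is the log2 ratio of the level plus 1 CPM over that in all kept cells. *Tet3*, *Tet2*, *Dnmt3a* and *Dnmt3b* were highest in cluster 6, and *Dnmt1* and *Uhrf1* in cluster 2.

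Over 22 finer clusters of at least 50 cells, likeness was measured as Pearson's r of log2(CPM + 1) across clusters, which share one library and differ in depth. The 5 genes most like *Uhrf1* were *Mcm3* (0.92), *Mcm2* (0.91), *Msh6* (0.90), *Chaf1a* (0.89) and *Mcm4* (0.88), of which the *Mcm* genes encode subunits of the replicative helicase. Those most like *Dnmt1* were *Fen1* (0.94), *Lig1* (0.91), *Hirip3* (0.89), *Rpa1* (0.88) and *Brca2* (0.87), and *Fen1* and *Lig1* process and join the fragments of the lagging strand. *Dnmt3a* was most like *Sfmbt1*, *Rab3gap1* and *Hip1* (0.95 to 0.93), *Tet3* most like *Ppp3ca*, *Zmiz1* and *Xrn1* (0.97 to 0.96) and *Tdg* most like *Aggf1*, *Ptpn11* and *Poc1b* (0.94 to 0.92). Among members, r was 0.82 for *Dnmt3a* with *Tet3*, 0.80 for *Tet3* with *Tdg*, 0.77 for *Dnmt1* with *Uhrf1* and -0.16 for *Dnmt3a* with *Uhrf1*. *Tet3* had r = 0.62 and *Dnmt3a* r = 0.53 with *Malat1*.

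Counts of 2 members in the same thinned cell were compared for the 21 pairs of 7 genes, and in 3 pairs the intervals of the shares with and without the other gene did not overlap. In 16 pairs the share was higher in cells with the other gene and in 5 it was lower. Pairs of all genes were not counted, so these numbers are not read as many or few. Shares without the clusters led by *Malat1* were not computed either. *Dnmt1* was found in 53.3% of cells with a *Uhrf1* count (50.9 to 55.8), against 41.4% of cells without one (39.6 to 43.3). *Dnmt3a* was found in 21.2% of cells with a *Tet3* count (18.2 to 24.4), against 13.9% of cells without one (12.8 to 15.1). *Tet3* was found in 20.9% of cells with a *Tdg* count (17.4 to 24.7), against 15.3% of cells without one (14.2 to 16.5). *Dnmt3a* was found in 14.1% of cells with a *Tdg* count, against 15.2% of cells without one, with overlapping intervals.

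Genes that work beside the maintenance pair were all present. Of 11 maintenance partners, 11 were at 10 CPM or more, with *Trim28* at 107 CPM, *Lig1* at 61.5 CPM, *Ehmt2* at 55.9 CPM and *Hells* at 51.1 CPM. In the S-high over the S-low group 4 were called higher and 0 lower, with a median log2 ratio of 0.44, where 9.80% of all genes at that level were called higher, 2.66% were called lower and the median was 0.11. *Hells*, the chromatin remodeller that DNA methylation needs, was at 95.3 CPM in the S-high group against 16.5 CPM in the S-low group. *Cdca7*, which recruits it, was at 49.1 CPM in the S-high group against 15.9 CPM in the S-low group. *Lig1* was at 96.1 CPM in the S-high group against 27.6 CPM in the S-low group, and *Hdac2* at 39.6 CPM in the S-high group against 24.2 CPM in the S-low group. *Uhrf2*, the paralogue of *Uhrf1*, was at 18.1 CPM in the S-high group and 15.5 CPM in the S-low group, and was not called.

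The methyl-CpG binding list is named after its families of genes, and not every protein on it need bind methylated DNA. Of 10 genes of this list with a row, 4 were at 10 CPM or more, led by *Mbd3* at 163 CPM and *Mbd2* at 59.9 CPM. In the S-high over the S-low group 0 of the 4 were called, and their median log2 ratio was 0.15. With 9.80% of all genes at that level called higher, a count of 0 among 4 genes is near the background. Below that level *Mbd4*, which also removes mispaired thymine, was at 8.54 CPM (7.48 to 9.70) in the S-high group, against 3.56 CPM (2.90 to 4.34) in the S-low group. *Zbtb4* was at 1.02 CPM (0.679 to 1.48) in the S-high group, against 3.71 CPM (3.02 to 4.49) in the S-low group.

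Base excision repair acts after *Tdg*. Of its 12 genes, 7 were at 10 CPM or more, led by *Apex1* at 191 CPM and *Parp1* at 107 CPM, and 2 were called higher in the S-high group, against 9.80% of all genes at that level. *Apex1*, the endonuclease for abasic sites, was at 223 CPM in the S-high group against 133 CPM in the S-low group. *Ung*, which removes uracil, was at 46.0 CPM in the S-high group against 7.56 CPM in the S-low group. *Ung* was also at 52.0 CPM in S-only cells against 3.35 CPM in G2M-only cells, a log2 ratio of 3.61, whereas *Tdg* was at 13.9 CPM in S-only cells against 16.0 CPM in G2M-only cells.

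In the cofactor lists 1 gene was called, a share near the 9.80% of all genes called higher. Of 7 genes of TET partners and 2-oxoglutarate supply with a row, 3 were at 10 CPM or more, *Idh2* at 249 CPM, *Idh3a* at 62.4 CPM and *Idh1* at 35.8 CPM, and *Idh3a* was called higher in the S-high group, with 71.9 CPM against 47.0 CPM in the S-low group. Of 8 genes of the S-adenosylmethionine cycle, which supplies the methyl group, 4 were at 10 CPM or more, led by *Shmt2* at 258 CPM and *Mat2a* at 217 CPM, and 0 were called in the S phase comparison.

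Germline genes listed as silenced by DNA methylation in body cells were mostly near absent, and the cause was not tested. Of 10 such genes with a row, 0 were at 10 CPM or more, where 33.2% of all genes were. Their median was 0.0249 CPM, while *Tdrkh* stood apart at 9.42 CPM (8.95 to 9.90). Of 13 imprinted genes with a row, 2 were at 10 CPM or more, *Gnas* at 216 CPM and *Impact* at 12.6 CPM, and *H19* had a level of 0.00624 CPM from 1 count. DNA methylation itself was not measured in this table.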

How the data were processed

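The authors deposited raw counts as whole numbers for each gene in each barcode. They were written by PISA 0.12, per the file headers, and the submitters' processing notes name Cell Ranger and the mm10 build without saying what each was used for. The annotation, the cell calling and the kind of count, molecules or reads, are not stated here, and for reads the true intervals would be wider.

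Barcodes were kept at 500 genes or more and 15% mitochondrial counts or less. Doublets were left in. Summed counts gave CPM, and shares at equal depth came from cells thinned to 10000 counts, without the 2439 cells below that depth. Orderings by gene lists, which hold no member, were cut at quantiles. Levels were compared as log2 ratios of CPM with a pseudocount of 1 CPM, called at 1.5-fold for genes at 10 CPM or more. Cells are not replicates, so no p-value was computed. A share of 0 is given with the limit that 3 counts of the total allow.

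Clusters (scanpy 1.11.5, igraph 0.11.9) used 2000 variable genes without any listed gene, 30 components, 15 neighbours and Leiden resolution 0.5, or 2 for the finer ones. The members and lists were chosen with earlier results of these data known. All members are named, and from other lists the 2 to 4 genes with the highest level or the largest ratio in the S phase comparison. *Ung* between the S-only and G2M-only classes, *Uhrf2*, *Tdrkh*, *H19*, *Malat1* and the marker genes were named after their values were seen. The steps were tested on simulated data. Python 3.11.15, numpy 2.4.6, scipy 1.17.1 and pandas 2.3.3 were used.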

Additional observations from a re-analysis of the deposited data

How the results depend on the processing

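No paired analysis was possible because the labels give no replicates and no test was made. The counts of members past a threshold were recomputed under 69 alternatives, of which 59 stayed within 1.5 times the value given. Shares of all genes were not recomputed beside them, so these counts show only how the choice of settings moved the members. In the S phase comparison 2 or 3 members were called higher under every alternative tried. The third member was *Tet3*, called within the shallowest of 3 depth groups at a log2 ratio of 0.74. The log2 ratio of *Uhrf1* in the S phase comparison was between 2.06 and 2.99, that of *Dnmt1* between 1.22 and 1.89 and that of *Tet3* between -0.31 and 0.74. In the G2 and M phase comparison the 3 members called higher became 5 with genes at 1 CPM or more, 0 at 2-fold and 1 without the clusters led by *Malat1*, an alternative chosen after seeing the data. Without these clusters the S-only cells had 2 members called higher in place of 1. In the histone comparison 1 member was called higher at 2-fold, in place of 2. In mature-marker cells 1 member, *Uhrf1*, was called lower, and this became 2 with cells thinned to 5000 counts and 0 with cells thinned to 20000 counts, with a pseudocount of 10 CPM or at 2-fold. The log2 ratio of *Dnmt3a* in that comparison was between 0.60 and 1.17. Thinned to 1900 counts, 1 member was found in at least 10% of cells, in place of 5, as fewer counts per cell lower every share. For single members, 474 of 603 alternative values stayed within the counting interval of the value given, 128 moved outside it and 1 called ratio changed sign. That was *Tet3* in S-only over G2M-only cells, at 0.17 without the clusters led by *Malat1*. Counting ratios that were not called, 51 of 531 changed sign under an alternative, among them that of *Dnmt3a* in the G2 and M phase comparison, at -0.76 without these clusters. The cause of these changes was not tested. Leaving out the clusters led by *Malat1* shows how values moved without these cells, but not why. Those cells differed in more than *Malat1*, and the groups were also cut again. At this depth *Tet1* and *Dnmt3l* could be given a level over all cells but not a difference between groups.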

Other observations

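Among the imprinted genes, *Kcnq1ot1* and *Airn*, long noncoding RNAs, were chosen after their values were seen. *Kcnq1ot1* was at 29.5 CPM in the G2M-high group against 0.775 CPM in the G2M-low group, and *Airn* at 4.52 CPM in the G2M-high group against 0.674 CPM in the G2M-low group. *Malat1* was at 630 CPM and 16.3 CPM in the same groups. Levels of *Kcnq1ot1* and *Airn* without the clusters led by *Malat1* were not computed, so the part of these clusters was not tested. *H19*, another such RNA, had 0 counts in the G2M-high group and 1 in the G2M-low group. The protein-coding imprinted genes *Gnas* and *Impact* had log2 ratios of -0.24 and 0.11 in the same comparison. *Igf2r*, the imprinted receptor gene that *Airn* overlaps, was at 12.1 CPM in mature-marker cells against 1.66 CPM in immature-marker cells, where *Airn* was at 1.11 CPM in mature-marker cells against 0.578 CPM in immature-marker cells.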
